A study of Mus musculus with 16 samples.

Results

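Alternative first exons and alternative last exons are exons at which some transcripts of a gene begin or end while others skip them, and their use was compared between mouse CD8+ T cells that had received a guide RNA against Tardbp and cells that had received a control guide RNA. The unit is the node, a stretch of exon that the splicing tool Whippet treats as 1 block, and each node has a value Psi (percent spliced in, here from 0 to 1), the share of transcripts that include it. The members are all nodes that the deposited table types as alternative first exon (AF) or alternative last exon (AL) and that have a numeric Psi in both groups. There were 1766 such nodes of 125520 in the table, of which 1279 were AF nodes in 1104 genes and 487 were AL nodes in 445 genes. In 56 genes both kinds were present.

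CD8+ T cells of OT-I mice, whose transgenic T cell receptor recognizes SIINFEKL, a peptide of ovalbumin, were given the nuclease Cas9 by electroporation together with a guide RNA, which was scrambled (Control gRNA) or directed at Tardbp (Tardbp gRNA), and were then transferred into C57BL/6J mice. Recipients in both groups received the antigen and the costimulatory antibodies anti-OX40 and anti-41BB, and CD8+ T cells were sorted from spleen and lymph nodes after 4 days according to the sample labels, and earlier according to the methods. The libraries, 8 per group, each came from 1 recipient mouse. The edited cells were a mixed population and not a clone, the study gives the animals' age only as a range over all its mice and not by group, and in such bulk samples fewer cells with a transcript and fewer copies per cell cannot be told apart.

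Libraries held 56016533 to 94801105 estimated transcript reads. Tardbp, which encodes the RNA binding protein TDP-43, was at 192 ± 13.3 CPM (reads of a gene scaled to a common library total; SD, n = 8) with Control gRNA and at 135 ± 11.3 CPM with Tardbp gRNA, and no library overlapped (log2 fold change -0.51, SE 0.06, adjusted p = 8.1e-07, edgeR quasi-likelihood test). The study reports from an immunoblot of pooled cells that TDP-43 protein was not made with this guide, and these libraries measure RNA only. All 5 CD8 T cell markers were higher with Tardbp gRNA, at a summed 3486 to 4607 CPM against 2349 to 2960 CPM. CD4 T cell, B cell and NK cell markers summed to at most 0.930, 18.4 and 3.88 CPM, and Pax5, which defines B cells, was at or near 0. Red cell precursor markers summed to 9.02 to 181 CPM against 0.442 to 17.4 CPM, and all 4 of these that could be tested were higher, while myeloid markers summed to 19.0 to 79.1 CPM against 14.8 to 35.1 CPM, with 1 of 4 tested higher. The deposited RNA concentration (no unit given) was 10.1 to 24.0 with Tardbp gRNA and 34.9 to 197.1 with Control gRNA, without overlap, and differed between the groups in every comparison that follows.

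A gene with alternative first exons is transcribed from more than 1 promoter, so that its messages differ in their 5′ untranslated region and sometimes in the first amino acids. A gene with alternative last exons is cleaved and polyadenylated at more than 1 place, and when the earlier exon is used the message ends before the remaining exons and can encode a shorter protein. TDP-43 binds UG-rich RNA in the nucleus and is known for repressing cryptic exons and for acting at polyadenylation sites, and the question of the comparison is which starts and ends of messages differ when its gene is targeted.

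The ends of 7 AL nodes that stand out below are printed first, because a poly(A) signal hexamer near the end is what marks an exon as terminal. Each line gives the last 30 transcribed bases of the annotated last exon, with AATAAA or ATTAAA in capitals where present. The first 5 are nodes whose usage rose with Tardbp gRNA, and the remaining 2 are nodes whose usage fell.
Vps53: ttattcttaAATAAAaaaaaaattacttat
Sntb1: tcagatctAATAAAttcacaatctgcagta
Cpped1: aataagatgtaaAATAAAagcttttcttgc
Rint1: tgtcatatttATTAAAgctagagcaaccca
Gna13: tcacctgAATAAAtgtcattttaaattcta
Wdr20: attgtttAATAAAcatcttttttcaaagaa
Cops7a: ataaatctatgagaaatctatgtacaaaaa
On GRCm38 (mm10) these lie at chr11:76176959-76176988 on the minus strand for Vps53, chr15:55790964-55790993 on the minus strand for Sntb1 and chr16:11884223-11884252 on the minus strand for Cpped1. The others lie at chr5:23793871-23793900 on the plus strand for Rint1, chr11:109380446-109380475 on the plus strand for Gna13, chr12:110794999-110795028 on the plus strand for Wdr20 and chr6:124958816-124958845 on the minus strand for Cops7a. In 6 of these 7 ends a hexamer is present in the last 30 bases. The sequences are those of the GENCODE transcripts.

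For the AF nodes that stand out, the 20 bases before the RefSeq transcription start are given in lower case and the first 10 transcribed bases in capitals, to show the promoter at which the exon begins. Sesn1 and Sirt6 are nodes whose usage rose with Tardbp gRNA, and Abcg2, Ptpn7 and Sptbn1 are nodes whose usage fell.
Sesn1: ccgcccgccccgcccccgccGGGTGCTGAC
Sirt6: cgggaagtgacacccactgcTCAGGCTGGG
Abcg2: ggcgcctgtgcggggcgggcAGACGCTCCT
Ptpn7: gacagagaccccaggagccaCAACTGATCT
Sptbn1: ttacaaaccggcaaggggggTGGGGGCTTG
These lie at chr10:41887419-41887448 on the plus strand for Sesn1, chr10:81627313-81627342 on the minus strand for Sirt6, chr6:58640526-58640555 on the plus strand for Abcg2, chr1:135133289-135133318 on the plus strand for Ptpn7 and chr11:30198248-30198277 on the minus strand for Sptbn1 (RefSeq, GRCm38.p6). Trps1 and Nt5c3b are named only.

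The AF and AL nodes were internal to their genes. Of the 1279 AF nodes, 1237 lay whole within an exon of an annotated transcript, 1219 of them only as its first exon, and 1235 were skipped by another transcript that spans them. Of the 487 AL nodes, 466 lay whole within an annotated exon, 459 only as the last exon, and 466 were skipped by a spanning transcript. Most were held by a single transcript, 942 AF and 375 AL nodes. AF nodes were short, with a median of 154 bases and quartiles of 92 and 254, and 384 of those held overlapped coding sequence. AL nodes were longer, with a median of 439 bases and quartiles of 236 and 1083, and 417 of those held overlapped coding sequence.

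Most of these exons were used little. With Control gRNA the median Psi was 0.0929 for AF and 0.116 for AL nodes, and 670 AF and 224 AL nodes were under 0.1. Only 174 AF and 75 AL nodes were over 0.9, which left 435 AF and 188 AL nodes between.

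The ends of AL nodes often carried a poly(A) hexamer. Among the 450 AL nodes whose end matched an annotated transcript end, 248 (55.1%) had AATAAA in the last 50 transcribed bases and 18.7% had ATTAAA. For tandem end nodes, which are successive ends within 1 last exon, the shares were 49.3% of 11809 and 15%. The UG-repeat letters TGTGTG were present in the last 100 transcribed bases of 23 AL nodes (5.11%) and of 719 tandem end nodes (6.09%). Only the transcribed strand was searched, and an end with both hexamers counts in both shares.

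The promoters of AF nodes were GC-rich. A RefSeq start matched 643 AF nodes, and the 300 bases around it had a median GC content of 60% and a median ratio of observed to expected CpG of 0.645, against 52.7% and 0.384 over all 32851 RefSeq promoters. The 227 AF nodes with a Control gRNA Psi over 0.5 had medians of 62.7% and 0.746, and the 286 nodes with a Psi under 0.1 had 58.3% and 0.497. The letters TATAAA between 40 and 16 bases before the start were present in 4 of the 643 (0.622%) and in 655 of all promoters (1.99%). These are descriptions over promoters, which differ in their genes' expression too, and no test was made.

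Psi differed little between the groups for most members. The table gives 1 Psi per group, so a difference has no replicate error and was described without a test. Among nodes of genes with a mean of at least 5 CPM, the median size of the difference was 0.0105 for 1146 AF nodes and 0.0110 for 398 AL nodes. In 39 AF nodes Psi was higher with Tardbp gRNA by over 0.1, and in 27 it was lower, together 5.76% of AF nodes. Past a size of 0.2, 8 AF nodes were higher and 10 lower, so the majority of higher nodes did not hold at this size. In 21 AL nodes it was higher by over 0.1 and in 8 it was lower, together 7.29%. Over all node types 1.84% were higher and 1.87% were lower by this size, where 83890 core exon nodes (0.571% past 0.1 in either direction) make up most nodes and tandem start and end nodes (18.4% and 18.5%) are the most often past it. AF and AL shares lay near those of retained introns (6.24%), alternative acceptors (6.15%) and alternative donors (7.43%).

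**Figure D1:**
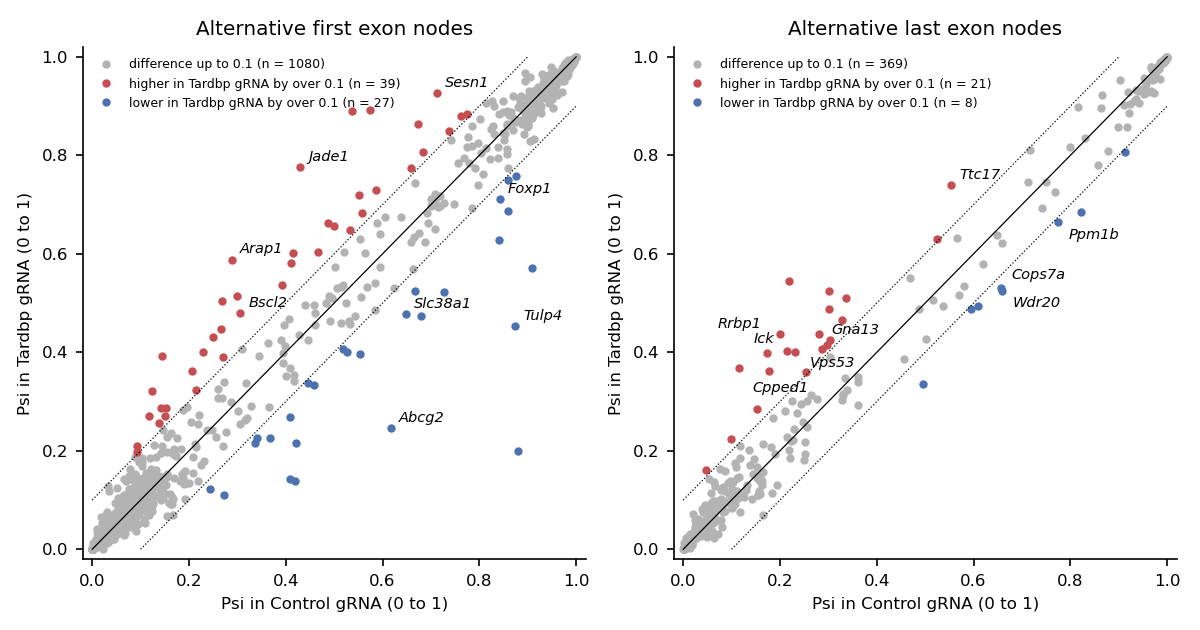
Psi of each AF node (left) and AL node (right) with Control gRNA on the horizontal axis and Tardbp gRNA on the vertical axis, both from 0 to 1, for genes with a mean of at least 5 CPM. Each point is 1 node, points past a difference of 0.1 are coloured, 39 AF and 21 AL nodes lie above that band and 27 AF and 8 AL nodes below it.

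Differences past 0.1 came from nodes in the middle of the scale. Of 346 AF nodes with a Control gRNA Psi between 0.1 and 0.9, 37 were higher and 26 lower, and of 121 such AL nodes 19 were higher and 7 lower. Among nodes under 0.1, only 2 of 632 AF and 2 of 209 AL nodes were past 0.1, and among nodes over 0.9 it was 1 of 168 and 1 of 68. Nodes close to either end of the scale can move by 0.1 in 1 direction only.

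The AL nodes that were higher with Tardbp gRNA were mostly held by transcripts with a short coding sequence, and those that were lower mostly by transcripts with a long one. For each node the longest coding length among the transcripts that hold it was set against the longest coding length in the gene. The median was 44.1% for 19 AL nodes higher by over 0.1 and 98.1% for 7 that were lower, beside 71.2% for 352 nodes within 0.1. In 14 of the 19 higher nodes it was under 50%, against 1 of the 7 lower nodes and 117 of the 352 others. Higher AL nodes had a median length of 416 bases and a median Control gRNA Psi of 0.232, whereas lower ones had 1720 bases and 0.656. For AF nodes the coding length hardly depended on the start, with medians of 100% for the higher and 99.4% for the lower nodes. Of the 26 AL nodes past 0.1 with a matched end, 19 (73.1%) had AATAAA in the last 50 bases and 2 had TGTGTG in the last 100, beside 54.0% and 4.95% of the 424 others.

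To put an error on these differences, the usage of each node was rebuilt in every library as the share of the gene's transcripts, counted per length, that hold the node, and was compared by limma over 33391 nodes of all types. A node was called when its adjusted p was under 0.05 and its usage differed by over 0.1. Of 1114 AF nodes tested 7 were called, 3 higher and 4 lower, and of 455 AL nodes tested 7 were called, 6 higher and 1 lower. Over all node types 0.222% were called higher and 0.65% lower, so that AL nodes were called higher in 6 of 455 and lower in 1 of 455. In either direction 0.628% of AF and 1.54% of AL nodes were called, beside 1.09% of tandem start nodes and 1.46% of tandem end nodes (29 higher, 121 lower). At an adjusted p under 0.05 of any size there were 15 of 1114 AF nodes (7 higher, 8 lower) and 22 of 455 AL nodes (11 and 11). By the same measure there were 218 of 8054 tandem start nodes, 336 of 10298 tandem end nodes and 80 of 10143 core exon nodes. The number of AF calls depended on single libraries: there were 4 without Control gRNA replicate 1, 3, 7 or 8 and 3 without Tardbp gRNA replicate 6, and AF nodes of any size numbered 9 without Control gRNA replicate 3 and 7 without Control gRNA replicate 7 or Tardbp gRNA replicate 6. In libraries numbered 4 to 8 alone, 2 AF and 3 AL nodes were called, of which 0 and 2 were among those above. With 1 library left out, AL calls numbered 5 to 7, and those of any size numbered 14 without Control gRNA replicate 8 or Tardbp gRNA replicate 6.

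Usage and Psi measure the same exons in different ways, since Psi comes from reads at the node itself and usage from estimates of whole transcripts. Across nodes, the Control gRNA level of both had a Pearson correlation of 0.855 for AF nodes and 0.918 for AL nodes, where both come from the same libraries, beside 0.146 and 0.263 for tandem start and end nodes. Among nodes with an adjusted p under 0.05, the sign of both differences was the same in 12 of 15 AF and 21 of 22 AL nodes. Of 21 AL nodes whose Psi was higher by over 0.1, usage was higher in 18 and 5 were called. Of 8 whose Psi was lower, usage was lower in 7 and 1 was called. Among AF nodes past 0.1 the sign was the same in 26 of 38 higher and 22 of 27 lower nodes, and 1 of each was called.

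**Figure D2:**
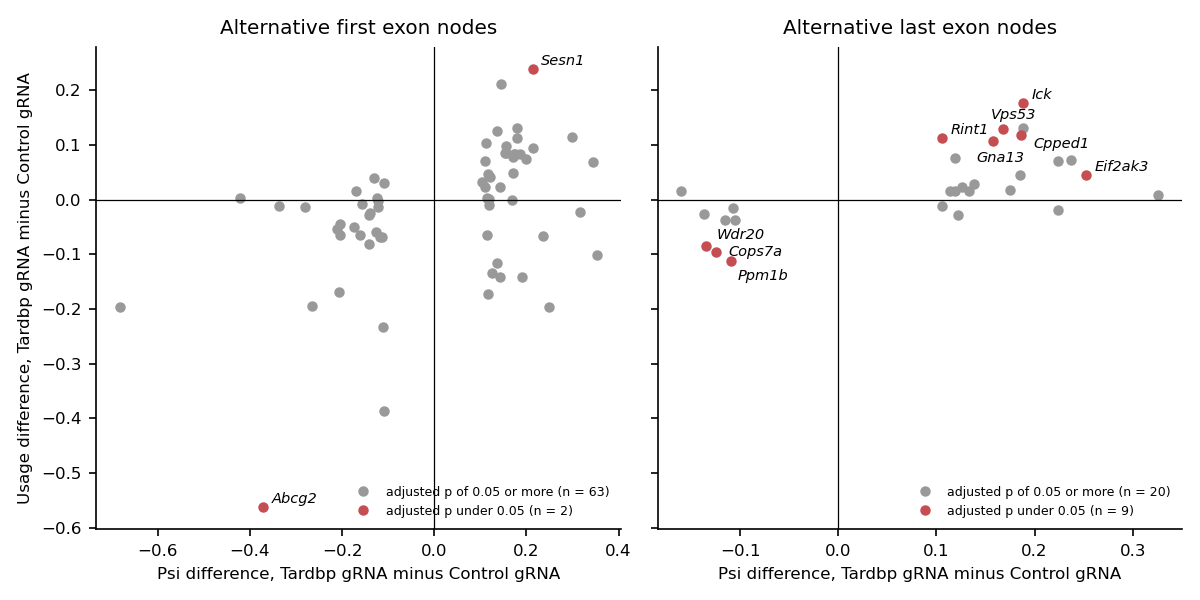
Difference in Psi (horizontal axis) against difference in rebuilt usage (vertical axis), both Tardbp gRNA minus Control gRNA on a scale of shares, for nodes whose Psi differed by over 0.1 in size and whose usage was tested (AF left, AL right). Each point is 1 node and the named points in red, 2 AF and 9 AL nodes, had an adjusted p under 0.05 in the usage test, and all of these lie where both differences have the same sign.

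The last exon of Vps53 with the lowest adjusted p of all AL nodes is an early one. Vps53 encodes a subunit of the GARP complex, which tethers vesicles that return from endosomes to the Golgi. The node is 424 bases long at chr11:76176959-76177382 on the minus strand, is the second and last exon of transcript Vps53-204, and lies 2265 bases from the start of the gene and 130733 bases from its end. This transcript encodes 108 coding bases, against 2496 for the longest of the gene. Its usage was 0.111, 0.127 and 0.151 (lowest, median, highest of 8) with Control gRNA and 0.219, 0.256 and 0.313 with Tardbp gRNA. All Tardbp gRNA libraries lay above all Control gRNA libraries. The means were 0.129 ± 0.0147 and 0.258 ± 0.0327 (SD, n = 8), a difference of 0.129 (SE 0.0125, adjusted p = 0.000104), and Psi was 0.232 and 0.400. In abundance, the transcripts that hold the node went from 3.10 ± 0.362 to 5.89 ± 0.780 CPM, while the other transcripts went from 86.1 ± 3.91 to 68.7 ± 4.33 CPM, and the gene as a whole fell (log2 fold change -0.26, SE 0.04, adjusted p = 6.0e-05).

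In 5 more genes usage of an early last exon rose by a similar amount. Ick, which encodes a kinase of the primary cilium, has a node of 701 bases at chr9:78124956-78125656 on the plus strand, exon 2 of 2 of Ick-201, with 300 of at most 1887 coding bases. Its usage was 0.137, 0.175 and 0.293 with Control gRNA and 0.207, 0.354 and 0.480 with Tardbp gRNA, so that the groups overlapped. The means were 0.189 ± 0.0585 and 0.366 ± 0.0928, a difference of 0.177 (SE 0.0379, adjusted p = 0.0249), and Psi was 0.215 and 0.403. The gene was low, with 0.455 and 0.762 CPM for the transcripts that hold the node, and the call was lost without Control gRNA replicate 6 (adjusted p = 0.0529) or 8 (0.0504).

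Sntb1 encodes a syntrophin, an adaptor at the membrane. Its node of 309 bases at chr15:55790964-55791272 on the minus strand is exon 3 of 3 of Sntb1-202, with 828 of at most 1611 coding bases. Usage was 0.0534, 0.104 and 0.126 with Control gRNA and 0.139, 0.217 and 0.375 with Tardbp gRNA, without overlap. The means were 0.0963 ± 0.0283 and 0.227 ± 0.0689, a difference of 0.131 (SE 0.0257, adjusted p = 0.0152). The transcript that holds the node was low, at 0.345 ± 0.136 and 1.28 ± 0.668 CPM. Here Psi hardly differed, at 0.0701 and 0.0851, which sets this node apart from the other early last exons.

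Cpped1 encodes a phosphatase of the calcineurin-like family. Its node of 1523 bases at chr16:11884223-11885745 on the minus strand is exon 3 of 3 of Cpped1-201, with 459 of at most 936 coding bases. Usage was 0.0871, 0.117 and 0.182 with Control gRNA and 0.166, 0.265 and 0.284 with Tardbp gRNA, with a slight overlap. The means were 0.128 ± 0.0358 and 0.245 ± 0.0487, a difference of 0.118 (SE 0.0209, adjusted p = 0.00821), and Psi was 0.176 and 0.362.

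Rint1 encodes a tether for vesicles that return from the Golgi to the endoplasmic reticulum. Its node of 343 bases at chr5:23793558-23793900 on the plus strand is exon 3 of 3 of Rint1-204, with 180 of at most 2376 coding bases. Usage was 0.108, 0.162 and 0.246 with Control gRNA and 0.218, 0.266 and 0.343 with Tardbp gRNA, and the groups overlapped at their edges. The means were 0.161 ± 0.0423 and 0.273 ± 0.0456, a difference of 0.112 (SE 0.0215, adjusted p = 0.0138), and Psi was 0.253 and 0.359. The transcript that holds the node was low, at 0.808 ± 0.182 and 1.33 ± 0.327 CPM.

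Gna13 encodes a G protein alpha subunit that relays signals from membrane receptors. Its node of 261 bases at chr11:109380215-109380475 on the plus strand is exon 3 of 3 of Gna13-202, with 519 of at most 1131 coding bases. Usage was 0.111, 0.179 and 0.216 with Control gRNA and 0.158, 0.282 and 0.370 with Tardbp gRNA, with overlap. The means were 0.175 ± 0.0322 and 0.281 ± 0.0682, a difference of 0.106 (SE 0.0261, adjusted p = 0.0497), and Psi was 0.280 and 0.438. The call is at the edge of the threshold and was lost on leaving out any library but Tardbp gRNA replicate 1, with differences of 0.0933 to 0.124 and adjusted p of 0.00780 to 0.0914.

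In these 6 genes the annotated gene went on for 20894 bases (Gna13) to 154576 bases (Sntb1) past the node. In Vps53, Ick, Cpped1, Rint1 and Gna13 the transcripts that hold the node were higher in mean CPM with Tardbp gRNA while the others were lower, as in Cpped1, at 1.68 ± 0.489 and 2.92 ± 0.550 CPM against 15.6 ± 1.61 and 12.4 ± 1.67 CPM. These abundances are not scaled by length, and with plain counts in place of counts per length the usage differences of these short transcripts were smaller, 0.0445 for Vps53 and 0.0253 for Gna13, and Ppm1b (described next) was the 1 AL node called.

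**Figure D3:**
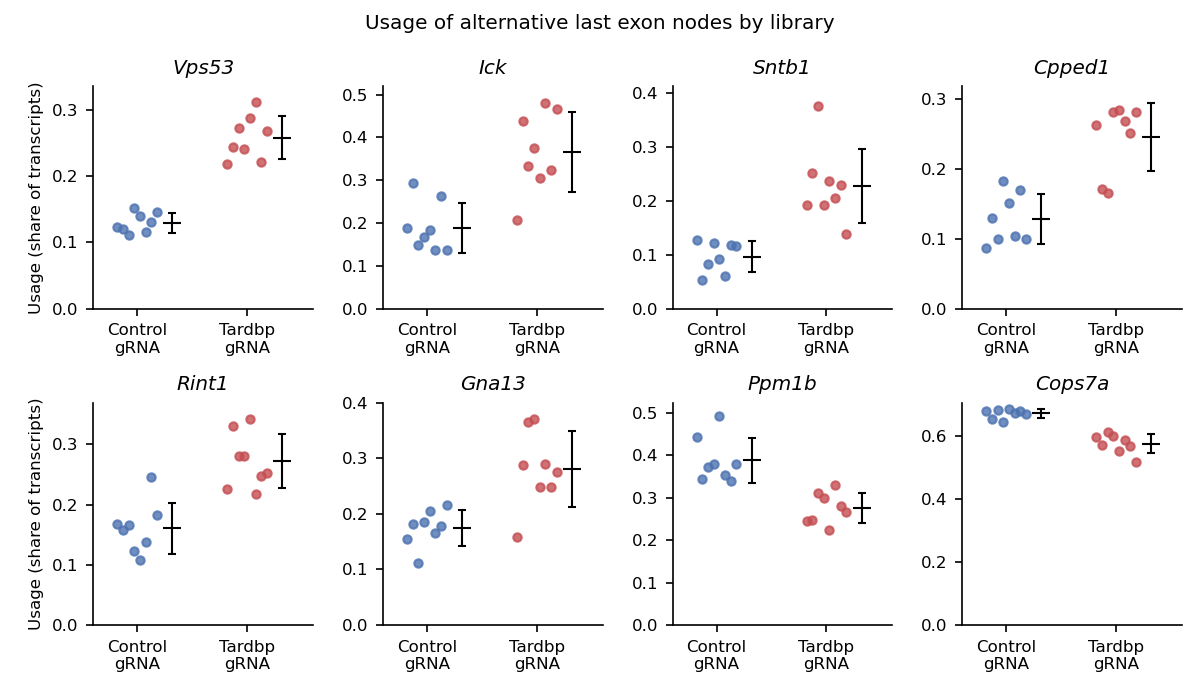
Usage of 8 AL nodes (share of the gene's transcripts per length, vertical axis) in each of the 8 Control gRNA and 8 Tardbp gRNA libraries. Points are libraries and bars are the mean and SD; Vps53, Sntb1, Ppm1b and Cops7a show no overlap between the groups, whereas Ick, Cpped1, Rint1 and Gna13 overlap.

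The 1 AL node called lower lies later in its gene, 6863 bases from the end. Ppm1b encodes a serine/threonine phosphatase of the PP2C family, and its node of 1720 bases at chr17:85015409-85017128 on the plus strand is exon 6 of 6 of Ppm1b-202, with 1170 of at most 1431 coding bases. Usage was 0.340, 0.376 and 0.493 with Control gRNA and 0.225, 0.274 and 0.330 with Tardbp gRNA, without overlap. The means were 0.388 ± 0.0536 and 0.275 ± 0.0361, so usage fell by 0.113 (SE 0.0223, adjusted p = 0.0161), and Psi was 0.774 and 0.665. Without Control gRNA replicate 5 the difference was -0.0977, under the size of 0.1. The transcripts that hold it were at 23.4 ± 3.30 and 22.4 ± 4.63 CPM and the others at 28.0 ± 6.75 and 42.3 ± 6.27 CPM.

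Cops7a and Wdr20 were just under the size of 0.1. Cops7a encodes a subunit of the COP9 signalosome, which regulates ubiquitin ligases, and its node is exon 8 of 8 of Cops7a-201. Its usage was 0.644, 0.674 and 0.685 with Control gRNA and 0.517, 0.579 and 0.613 with Tardbp gRNA, without overlap. The means were 0.670 ± 0.0145 and 0.575 ± 0.0306, a difference of -0.0953 (SE 0.0118, adjusted p = 0.000722), and Psi was 0.656 and 0.532. Wdr20, a cofactor of deubiquitinases, had usage of 0.483, 0.539 and 0.571 with Control gRNA and 0.406, 0.445 and 0.481 with Tardbp gRNA, also without overlap. The difference was -0.0843 (SE 0.0155, adjusted p = 0.0100), with Psi at 0.659 and 0.525. The Wdr20 transcript that holds the node was at 22.8 ± 2.14 and 23.2 ± 1.66 CPM, and the others were at 12.7 ± 1.39 and 19.1 ± 2.79 CPM. Leaving out Tardbp gRNA replicate 3 brought Cops7a past 0.1, at -0.101.

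For the 22 AL nodes with an adjusted p under 0.05, the longest coding length among holding transcripts was again set against the gene's longest. The median was 28.6% for 10 nodes that rose and 99.3% for 11 that fell. Their median Control gRNA Psi was 0.176 and 0.774. This split uses the usage test to choose the nodes and is given as a description.

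Other AL nodes with large Psi differences were not called. Rrbp1, a ribosome binding protein of the endoplasmic reticulum, went from a Psi of 0.20 to 0.437 and a usage of 0.0752 ± 0.0425 to 0.148 ± 0.0665 (adjusted p = 0.232). Ttc17, a tetratricopeptide repeat protein, went from a Psi of 0.554 to 0.739 with usage of 0.530 ± 0.0869 and 0.575 ± 0.0904 (adjusted p = 0.753). Nisch, which encodes the integrin binding protein nischarin, went from 0.335 to 0.510 with usage of 0.136 ± 0.0161 and 0.153 ± 0.0204 (adjusted p = 0.474). For these 3 genes both measures were higher with Tardbp gRNA, but the usage difference did not pass the adjusted test. Eif2ak3, which encodes the stress kinase PERK and is named here after its values were seen, passed the adjusted p but not the size of 0.1. Its AL node at chr6:70864498-70864825 on the plus strand had a Psi of 0.116 and 0.369 and a usage of 0.0186 ± 0.0173 and 0.0638 ± 0.0238 (adjusted p = 0.0332).

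Genes with well-known last exon choices had few members. Of 10 genes listed for intronic polyadenylation, 2 held an AF or AL node. Fas, the death receptor, had an AL node with Psi of 0.113 and 0.105 and usage of 0.0470 ± 0.0108 and 0.0529 ± 0.0163 (adjusted p = 0.795). Stat5b, a transcription factor of IL-2 signaling, had an AF node with Psi of 0.00884 and 0.0215 (adjusted p of usage 0.555). Il2ra, the alpha chain of the IL-2 receptor, had an early AL node, exon 2 of 2 of Il2ra-202 with 132 of 804 coding bases. Its usage was 0.0295, 0.0392 and 0.0537 with Control gRNA and 0.0482, 0.0591 and 0.0831 with Tardbp gRNA. The means were 0.0411 ± 0.00781 and 0.0625 ± 0.0125. The difference of 0.0213 was far under the size of 0.1 and did not pass the limma test (adjusted p = 0.0510). The transcript that holds the node was lower in mean CPM with Tardbp gRNA, at 1.42 ± 0.351 and 1.12 ± 0.299 CPM. The other transcripts were lower too, at 144 ± 29.3 and 73.0 ± 15.5 CPM. The gene itself fell (log2 fold change -0.97, SE 0.14, adjusted p = 1.2e-05).

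Among the 7 AF nodes called, that of Sesn1 had the largest rise in usage. Sesn1 encodes sestrin 1, which restrains the growth kinase mTORC1. The node of 157 bases at chr10:41887439-41887595 on the plus strand is the first exon of Sesn1-201, lies 77504 bases from the annotated start of the gene, and gives 1476 of at most 1653 coding bases. Usage was 0.338, 0.507 and 0.712 with Control gRNA and 0.650, 0.767 and 0.858 with Tardbp gRNA, with overlap. The means were 0.512 ± 0.115 and 0.751 ± 0.0622, a difference of 0.239 (SE 0.0450, adjusted p = 0.0120), and Psi was 0.712 and 0.926. The transcripts from this start went from 9.82 ± 3.66 to 28.7 ± 6.12 CPM, while the others were at 12.7 ± 2.45 and 13.3 ± 3.74 CPM, and the gene rose (log2 fold change 0.90, SE 0.12, adjusted p = 6.2e-06).

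Usage of 2 more first exons rose. Sirt6, a deacylase of chromatin, has its node of 429 bases at chr10:81626892-81627320 on the minus strand, the first exon of Sirt6-202. Usage was 0.348, 0.427 and 0.480 with Control gRNA and 0.487, 0.551 and 0.709 with Tardbp gRNA, without overlap, with means of 0.416 ± 0.0526 and 0.566 ± 0.0719 (difference 0.15, SE 0.0308, adjusted p = 0.0202). Psi went slightly the other way, at 0.156 and 0.147. Trps1, a zinc finger repressor, has its node of 236 bases at chr15:50827286-50827521 on the minus strand, the first exon of Trps1-203. Its usage was 0.181, 0.241 and 0.363 against 0.283, 0.444 and 0.663, with overlap, with means of 0.255 ± 0.0578 and 0.441 ± 0.119 (difference 0.186, SE 0.0457, adjusted p = 0.0496). The transcript that holds the node was at 1.26 ± 0.418 and 2.81 ± 0.859 CPM. The Trps1 call held in 5 of the 16 sets with 1 library left out, namely those without Control gRNA replicate 2 or Tardbp gRNA replicate 1, 3, 5 or 7, and adjusted p ranged from 0.0253 to 0.0945.

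Usage of 4 first exons fell. Sptbn1 encodes a beta spectrin of the membrane skeleton, and its node of 534 bases at chr11:30197724-30198257 on the minus strand starts Sptbn1-203, which lacks part of the longest coding sequence (6462 of 7089 bases). Usage was 0.372, 0.468 and 0.538 with Control gRNA and 0.293, 0.324 and 0.390 with Tardbp gRNA, with a small overlap. The means were 0.459 ± 0.0553 and 0.330 ± 0.0352, so usage fell by 0.128 (SE 0.0227, adjusted p = 0.00808). Psi was near its upper end in both groups, at 0.987 and 0.978. Both sets of transcripts were lower in mean CPM, at 90.8 ± 21.8 and 43.0 ± 7.13 CPM for those from the node and 94.2 ± 6.96 and 76.7 ± 9.56 CPM for the others.

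Ptpn7 encodes a tyrosine phosphatase of blood cells that acts on the kinases ERK and p38. Its node of 147 bases at chr1:135133309-135133455 on the plus strand starts Ptpn7-202, whose coding sequence is as long as the longest of the gene. Usage was 0.519, 0.576 and 0.668 with Control gRNA and 0.407, 0.460 and 0.530 with Tardbp gRNA, with overlap at the edges. It fell by 0.117 (SE 0.0251, adjusted p = 0.0251) from 0.580 ± 0.0496 to 0.463 ± 0.0532, and Psi was 0.624 and 0.530. Transcripts from this start were at 223 ± 24.8 and 142 ± 17.4 CPM, while the others were at 165 ± 22.0 and 169 ± 19.1 CPM. The call was lost without Tardbp gRNA replicate 6 (adjusted p = 0.0535) or 7 (0.0508).

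Nt5c3b, a nucleotidase, has its node of 93 bases at chr11:100440928-100441020 on the minus strand. Usage was 0.122, 0.276 and 0.378 with Control gRNA and 0.0143, 0.0694 and 0.225 with Tardbp gRNA, with overlap. It fell by 0.169 (SE 0.0387, adjusted p = 0.0347), from 0.263 ± 0.0909 to 0.0935 ± 0.0655, while Psi was 0.113 and 0.131. The call held only without Control gRNA replicate 4 or 6 or Tardbp gRNA replicate 2 or 5, and adjusted p ranged from 0.0164 to 0.0717 over the 16 sets with 1 library left out.

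Abcg2 showed the largest of the called differences and the least even one. It encodes an efflux transporter of the ABC family, and its node of 64 bases at chr6:58640564-58640627 on the plus strand starts Abcg2-202. Usage was 0.728, 0.853 and 0.982 with Control gRNA. With Tardbp gRNA it was 0.715, 0.0147, 0.0174, 0.131, 0, 0.420, 0 and 0.958 in replicates 1 to 8. Replicates 1 and 8 thus lay at or near the Control gRNA range and the other 6 lay below it. The means were 0.844 ± 0.0908 and 0.282 ± 0.375, a difference of -0.562 (SE 0.133, adjusted p = 0.0420), with Psi at 0.616 and 0.245. The gene was low, with 4.78 ± 1.48 and 0.862 ± 1.39 CPM from this start, and the call held only without Tardbp gRNA replicate 1 (adjusted p = 0.0209) or 8 (0.00406), with an adjusted p of up to 0.0820 in the other sets.

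**Figure D4:**
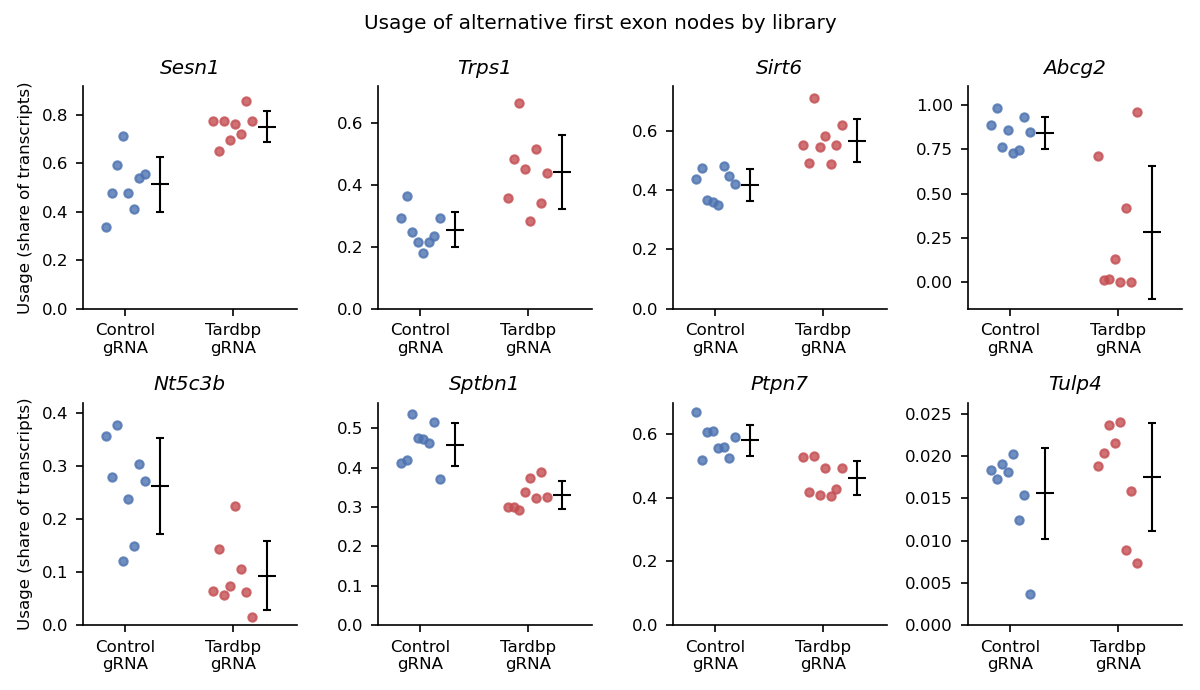
Usage of 8 AF nodes (share of the gene's transcripts per length, vertical axis) in each of the 8 Control gRNA and 8 Tardbp gRNA libraries. Points are libraries and bars are the mean and SD; only Sirt6 shows no overlap, Abcg2 is spread from 0 to 0.958 with Tardbp gRNA, and Tulp4 lies near 0 in both groups.

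Of the 8 AF nodes with the largest Psi differences among genes of at least 20 CPM, Sesn1 was called by usage and the other 7 were not. Tulp4, a tubby-like protein, went from a Psi of 0.874 to 0.453, but its usage was 0.0156 ± 0.00539 and 0.0176 ± 0.00639 (adjusted p = 0.865), so that the rebuilt transcripts hardly begin there. Jade1, a subunit of the HBO1 acetyltransferase complex, went from 0.430 to 0.775 with usage of 0.0580 ± 0.0406 and 0.126 ± 0.118 (adjusted p = 0.575). Arap1, a GTPase activating protein, went from 0.288 to 0.588 with usage of 0.182 ± 0.115 and 0.296 ± 0.127 (adjusted p = 0.451). In Arap1 both measures were higher with Tardbp gRNA, but single libraries ranged from 0 to 0.341 with Control gRNA.

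Dhcr7, which makes cholesterol in its last step, had Psi of 0.124 and 0.322, and Hdlbp, an RNA binding protein with many KH domains, had 0.266 and 0.446. Their usage did not pass the test (adjusted p = 0.742 and 0.392). In the opposite direction Unkl, a zinc finger protein, went from 0.840 to 0.629 and Urgcp from 0.727 to 0.523, with usage that was lower too, 0.410 ± 0.0992 and 0.356 ± 0.0635 for Unkl and 0.179 ± 0.135 and 0.115 ± 0.0640 for Urgcp (adjusted p = 0.659 and 0.690).

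Among 16 T cell genes listed for alternative promoters or start exons, 7 held a node. The node read in each gene was the one with the largest Psi difference in size between the groups. Of these nodes, 0 passed the limma usage test at an adjusted p under 0.05, 4 had an unadjusted p under 0.05, and 1 could not be tested. The 4 include the AL node of Il2ra, described above. Because the nodes were picked by a difference in these same samples, the 4 cannot be weighed against the shares over all members. Over all members tested, 8.98% of AF and 17.4% of AL nodes had an unadjusted p under 0.05. For tandem start, tandem end and core exon nodes the shares were 15.7%, 17.2% and 7.78%. Foxp1, a transcription factor of T cell quiescence, came closest among first exons. Its node had Psi of 0.842 and 0.711, while usage was 0, 0.00407 and 0.0155 with Control gRNA and 0.0160, 0.0369 and 0.101 with Tardbp gRNA, without overlap (difference 0.0389, SE 0.0106, adjusted p = 0.0793). The measures thus differed in level and in sign.

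Lef1 and Tcf7, transcription factors of naive and memory T cells, are both known for an internal promoter whose products lack the N-terminal part that binds beta-catenin. The Lef1 node starts Lef1-203, which has 993 of at most 1191 coding bases, and lies 2326 bases from the annotated start of the gene. Whether it is that internal start was not examined. The Lef1 node had Psi of 0.544 and 0.473 and usage of 0.416 ± 0.105 and 0.294 ± 0.0513 (adjusted p = 0.164). The Tcf7 node is not that internal start: it lies 443 bases from the annotated start of the gene. Tcf7-201, which it starts, and the other transcript Tcf7-202 both have 909 coding bases, so its usage does not separate the long and short products. It had Psi of 0.407 and 0.468 and usage of 0.953 ± 0.0171 and 0.962 ± 0.0112 (adjusted p = 0.687). Both genes rose as a whole, with log2 fold changes of 0.37 (SE 0.06, adjusted p = 3.3e-05) for Lef1 and 0.64 (SE 0.09, adjusted p = 1.5e-05) for Tcf7. Neither of these nodes had a called change in usage, and the internal start of Tcf7 was not read.

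Nfatc1, whose promoters give proteins with different N termini, had Psi of 0.585 and 0.485 and usage of 0.701 ± 0.0346 and 0.642 ± 0.0653 (adjusted p = 0.336). Bcl2l1, which encodes the survival protein Bcl-xL, had Psi of 0.0776 and 0.163 with usage near 0 in both groups (adjusted p = 0.624). For Dnmt3a, a DNA methyltransferase, Psi was 0.0884 and 0.0784 and the transcript that holds the node was listed at 0 in all 16 libraries, so no test could be made.

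The study itself tabulates first or last exon nodes in 4 genes, of which Vps53 and Cops7a are described above. Slc38a1, a glutamine transporter, had an AF node with Psi of 0.648 and 0.477 but usage of 0.0385 ± 0.00744 and 0.0539 ± 0.0148 (adjusted p = 0.249). Bscl2, which encodes the lipid droplet protein seipin, had Psi of 0.306 and 0.480 and usage of 0.394 ± 0.111 and 0.478 ± 0.187 (adjusted p = 0.739). Since that study chose these genes on these samples, their direction is not independent evidence.

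**Figure D5:**
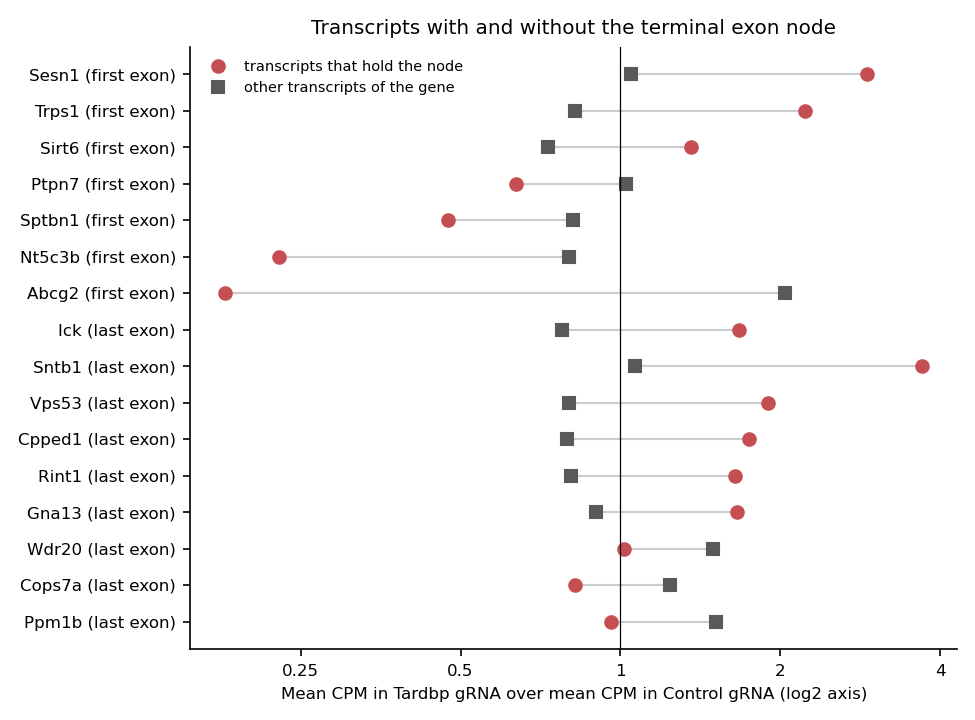
Ratio of mean CPM, Tardbp gRNA over Control gRNA (log axis), of the transcripts that hold the node and of the gene's other transcripts, for the 14 nodes called in the usage test with Cops7a and Wdr20. In Vps53, Ick, Cpped1, Rint1, Gna13, Trps1 and Sirt6 the transcripts that hold the node lie above 1 and the others below it. In Sesn1, Sntb1 and Wdr20 both lie above 1, and in Sptbn1 and Nt5c3b both lie below it.

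The genes that hold these nodes were compared as whole genes. Of 1460 member genes tested, 397 (27.2%) were higher and 459 (31.4%) lower with Tardbp gRNA at an adjusted p under 0.05, beside 23.5% and 23.3% of all genes. Their median log2 fold change was -0.00225, against 0.05 over all genes. For genes with an AF node it was 277 higher and 355 lower of 1081, and for genes with an AL node 135 and 120 of 431. Among genes with a node past a Psi difference of 0.1, 15 of 61 AF genes were higher and 19 lower, and 11 of 28 AL genes were higher and 8 lower.

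The factors that cut and polyadenylate messages, the U1 particle that restrains early ends, and the kinases and proteins that act on elongating polymerase were read as 1 list of 27 genes. Of these, 13 were lower and 3 higher, beside 23.3% lower and 23.5% higher over all genes tested, with a median log2 fold change of -0.13 and a summed level of 3009 to 3212 CPM with Control gRNA and 2592 to 2840 CPM with Tardbp gRNA. The lower genes included Cpsf1 (-0.62), a subunit of the cleavage complex, Sympk (-0.70), its scaffold, Cstf2 (-0.54), which binds downstream of the cleavage site, and Cpsf6 (-0.35), a subunit of the cleavage factor CFIm. Snrnp70 (-0.35), a protein of the U1 particle, and Scaf8 (-0.52), which prevents early ends, were lower too. The 3 higher genes were Pabpn1 (0.44), the nuclear poly(A) binding protein, Cdk13 (0.38), an elongation kinase, and Snrpc (0.16), a U1 protein. The list was drawn up with earlier results of these data known, so its counts are a description and not a test against all genes. The part of these levels in the usage differences was not tested.

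The usage calls moved with covariates that differ between the groups. With the RNA concentration as a covariate, limma called 0 AF and 0 AL nodes, and 74 and 42 had an unadjusted p under 0.05, against 100 of 1114 and 79 of 455 without it. In that fit the Vps53 difference was 0.131 with an adjusted p of 0.199. Because the concentrations do not overlap between the groups, concentration and guide cannot be told apart in these libraries. With the same covariate edgeR called 350 member genes, 135 higher and 215 lower, against 856 without it, and 8 genes of the last exon machinery against 16.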

How the data were processed

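Per the study's methods and the labels, RNA of sorted CD8+ T cells was made into SMART-Seq v4 and Nextera XT libraries and sequenced as paired reads. The authors processed the reads with Whippet (version not given in the sources used here), and the deposited Psi is a fraction with 1 value per group of 8 libraries. Which column is Control gRNA comes from the study's tables. The authors' columns of Psi differences and probabilities were not used. The deposited gene and transcript tables hold estimated counts, which per the labels came from HISAT2 2.1.0, SAMtools 1.9 and StringTie 2.1.0 on mm10. The deposited sheets give counts of 29714709 to 48164083 read pairs per library, the RNA concentration without a unit and the sex letter. The letter was M for 3 and F for 5 Control gRNA libraries, and M for 5 and F for 3 Tardbp gRNA libraries. Both count tables have 10 columns of other samples that were not used, and 26345 lines without an annotated gene (0.0836% to 0.132% of counts) were left out.

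Nodes were matched to GENCODE M21 transcripts by symbol, strand and position (1254 of 1279 AF and 474 of 487 AL nodes matched by symbol). A transcript held a node if an exon contained all of it. Usage was the sum of count over transcript length for these transcripts, divided by that sum over all transcripts of the gene for first, last and tandem nodes, or over transcripts that span the node for other types. Genes with a mean count of at least 50 were tested with limma 3.58.1 (empirical Bayes, two-sided) in R 4.3.3, with Benjamini-Hochberg adjustment over 33391 nodes, and a node was called if its adjusted p was under 0.05 and its usage differed by over 0.1. Genes were tested with edgeR 4.0.16 (quasi-likelihood, TMM, filterByExpr, two-sided) over 16650 genes. Both tests were run on simulated data, in which usage was drawn with the same spread in both groups. That simulation does not cover nodes of unequal spread such as Abcg2. DESeq2 1.42.0 was an alternative.

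Named nodes were all those called in the usage test. Added to them were the 8 AF and 6 AL nodes with the largest Psi difference in genes of at least 20 CPM. In each gene of 3 lists, the node with the largest Psi difference in size was named. Wdr20, Cops7a and Il2ra came in by these rules too. The members and lists were chosen with earlier results of these data known. The depth behind a single Psi is unknown. No pair of libraries of 1 group (0 of 56) held identical counts. P-values measure the spread between libraries, each from 1 recipient. Per the study's methods, donor cells were divided by group before electroporation and were transferred afterwards. How many separate electroporations lie behind the 8 libraries of a group is not given, so the spread between editings is not measured on its own.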

Additional observations from a re-analysis of the deposited data

Results flagged for a closer look

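Over 72 groups of 8 libraries, 5 held a library whose usage stood apart from the others (Dixon's test at 95%), where chance marks about 1 in 20 groups. In Control gRNA replicate 8, usage was 0.547 for the Hdlbp AF node with the nearest library at 0.278, 0.633 for the Lef1 AF node with the nearest at 0.461, and 0.00364 for the Tulp4 AF node with the nearest at 0.0125. In Control gRNA replicate 2 the Tcf7 AF node was at 0.914, below the nearest at 0.944. In Tardbp gRNA replicate 3 the Slc38a1 AF node was at 0.0872, above the nearest at 0.0556. Of these 5 nodes none passed the usage test, and 3 of the 5 libraries were the same one.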

How the results depend on the processing

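The counts of nodes past a Psi difference follow the size asked for. Over 0.05 there were 161 AF and 64 AL nodes. Over 0.2 there were 18 AF nodes (8 higher, 10 lower, so the majority of higher nodes did not hold) and 5 AL nodes (all higher). In genes of at least 20 CPM there were 32 and 16, against 66 AF nodes (39 higher, 27 lower) and 29 AL nodes (21 and 8) as reported. In the usage test, the sex letter as a covariate gave 4 AF calls, plain counts gave 1 AL call, and the RNA concentration as a covariate gave 0 AF and 0 AL calls by limma, with 74 and 42 nodes at an unadjusted p under 0.05. Replicate numbers are shared by the groups but samples of 1 number did not deviate together (r -0.0230 to 0.0409 for usage and -0.0048 to 0.160 for genes, with 1 and 2 of 8 numbers matching best with their own), so they are not read as pairs. With the replicate number as a block there were 2 AF and 3 AL calls and 844 genes. Chosen after the data were seen, libraries numbered 1 to 3 gave 0 AF and 0 AL calls (58 and 39 at an unadjusted p under 0.05) and 203 member genes, and numbers 4 to 8 gave 2 AF and 3 AL calls, 0 and 2 of them among those reported. The RNA concentration as a covariate gave 350 member genes. Leaving out 1 library gave 3 to 7 AF calls, 5 to 7 AL calls and 805 to 858 member genes.

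Signs reversed for uncalled values only: with the RNA concentration the usage difference was -0.149 for Dhcr7, -0.0379 for Hdlbp and 0.0328 for Stat5b, and the log2 fold change of Cops7a was 0.0526. With plain counts it was -0.0006001 for Tulp4. The log2 fold change of Sirt6 was 0.0296 in numbers 4 to 8 and -0.0870 to 0.00384 with 1 library left out, above 0 only without Tardbp gRNA replicate 3, and that of Trps1 was -0.0621 to 0.0221, above 0 without Control gRNA replicate 2 or 3 or Tardbp gRNA replicate 8. The causes were not tested. Low abundance of the shorter transcripts, often a few CPM and in Ick, Sntb1 and Rint1 under 1 CPM with Control gRNA, limits the precision of usage.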
